A study of Mus musculus with 12 samples.

Results

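The genes described here are the 10 members of Hedgehog and PTHrP signalling in the growth plate that were selected by name, *Ihh*, *Ptch1*, *Hhip*, *Smo*, *Sufu*, *Gli1*, *Gli2*, *Gli3*, *Pthlh* and *Pth1r*, out of 46731 genes in the table. Each name matched a single row, and no measured value entered the selection. RNA was sequenced from ATDC5 cells, a mouse line used as a chondrocyte model, which the labels list under teratocarcinoma cells. All cells carried a lentiviral short hairpin, either a negative control (shRNA-NC) or one against *Ddx5* (shRNA-*Ddx5*), in stably infected lines selected with puromycin. Both kinds of cells were kept for 6 h in medium or in medium with IL-1β (5 ng/ml) plus TNF-α (25 ng/ml), referred to as cytokines below, giving 4 groups of 3 libraries. The comparisons address what the loss of the RNA helicase DDX5 does to chondrocyte gene expression with and without an inflammatory stimulus. The study lists a single hairpin against *Ddx5*. Other effects of that hairpin, or differences between the infected lines, cannot be told apart from loss of DDX5.

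In the growth plate, Indian hedgehog (IHH) from prehypertrophic chondrocytes and parathyroid hormone-related protein (PTHrP, encoded by *Pthlh*) form a feedback loop that sets when chondrocytes stop dividing and enlarge. Without ligand, the receptor PTCH1 holds the membrane protein SMO inactive. When a Hedgehog ligand binds PTCH1, SMO accumulates in the primary cilium and GLI transcription factors are released from SUFU, with GLI3 acting mainly as a repressor and GLI1 as an activator. *Gli1*, *Ptch1* and *Hhip* are themselves transcribed in response to the pathway, so their RNA is commonly read as its output. PTHrP acts through the receptor PTH1R, which signals mainly through the G protein Gαs, cAMP and protein kinase A.

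The libraries held 14119199 to 19276520 fragments on genes. The knockdown was seen in every library, as mean *Ddx5* FPKM in shRNA-*Ddx5* cells was 32.3% of the control in medium and 32.1% with cytokines. Of the cartilage genes that define the cell type, *Sox9* reached a mean of 27.5 FPKM and *Col2a1* 12.4 FPKM in shRNA-NC cells in medium, whereas *Cnmd* was listed at 0 in all libraries and the group means of *Acan* were at most 0.0243 FPKM. Of 12 markers of leukocytes, endothelium, epithelium, osteoblasts, fat and muscle, 8 were listed at 0 in each group, and their summed level was 1.29 to 1.61 FPKM in shRNA-NC and 1.33 to 1.49 in shRNA-*Ddx5* cells in medium, against 1.72 to 2.44 and 1.45 to 1.88 with cytokines. In bulk RNA, fewer cells that express a gene and less RNA per cell cannot be told apart. The replicates are labelled as separate samples of each group, and p-values measure the spread between them.

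Promoter sequences were taken from RefSeq for the 250 bases before each gene's start. They are shown because the study examined DDX5 for its action on G-quadruplexes, 4-stranded folds of G-rich DNA. The table held 11 such windows for 9 members, with 3 alternative starts of *Pth1r*, and no entry for *Gli1*. All 11 windows matched the GRCm39 genome once and without a mismatch. A G-quadruplex pattern, at least 4 runs of 3 or more G with 1 to 7 bases between runs on either strand, was found in 8 of the 11 windows, belonging to 7 members, and in 16.7% of all 32851 windows. The *Col2a1* promoter sequence on which the study tested DDX5 has shorter runs of G and would not match this pattern. Of the sequences predicted in that promoter, the study reported folding for that sequence only. A match here therefore does not mark a target of DDX5. The GC content of the member windows was 54% to 78.4%, against a median of 52.4% over all windows. *Ptch1*, *Gli3* and *Pth1r*, which differed after the knockdown, are printed with *Sufu*, which did not pass in any test and held no pattern. Capitals mark the pattern, as runs of G or, on the other strand, of C.
Ptch1: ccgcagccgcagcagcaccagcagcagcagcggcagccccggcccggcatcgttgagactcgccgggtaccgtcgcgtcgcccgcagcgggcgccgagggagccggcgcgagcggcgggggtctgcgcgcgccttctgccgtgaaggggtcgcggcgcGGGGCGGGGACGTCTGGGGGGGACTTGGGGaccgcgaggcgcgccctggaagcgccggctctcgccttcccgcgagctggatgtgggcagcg
Gli3: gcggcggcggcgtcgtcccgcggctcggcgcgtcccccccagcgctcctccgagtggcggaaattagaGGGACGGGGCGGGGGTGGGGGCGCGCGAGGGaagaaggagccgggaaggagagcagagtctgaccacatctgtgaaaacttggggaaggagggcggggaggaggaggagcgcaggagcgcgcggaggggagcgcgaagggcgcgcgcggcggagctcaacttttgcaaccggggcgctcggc
Pth1r: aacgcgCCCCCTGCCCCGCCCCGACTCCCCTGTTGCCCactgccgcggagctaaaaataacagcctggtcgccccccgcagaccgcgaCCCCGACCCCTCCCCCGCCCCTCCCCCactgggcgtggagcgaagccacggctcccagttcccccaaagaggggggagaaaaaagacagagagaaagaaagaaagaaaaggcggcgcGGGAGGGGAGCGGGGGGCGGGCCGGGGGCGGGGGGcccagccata
Sufu: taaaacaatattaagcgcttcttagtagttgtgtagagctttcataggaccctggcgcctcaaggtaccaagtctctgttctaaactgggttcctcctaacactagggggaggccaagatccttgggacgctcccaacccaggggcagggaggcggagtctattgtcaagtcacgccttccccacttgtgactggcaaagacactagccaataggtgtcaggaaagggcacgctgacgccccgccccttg
These windows lie at chr13:63713550-63713799 on the minus strand for *Ptch1*, at chr13:15638058-15638307 on the plus strand for *Gli3*, at chr9:110571679-110571928 on the minus strand for *Pth1r* and at chr19:46385085-46385334 on the plus strand for *Sufu*. The *Ptch1* window and the printed *Pth1r* window precede starts inside the span of the gene in the table. The *Ptch1* and *Gli3* windows held 1 match each and the *Pth1r* window 3 matches, while the *Sufu* window held none. The window of *Smo*, which passed in no comparison, held 2 matches, an uninterrupted run of C among them, and another of the *Pth1r* windows held none. The *Gli2* window, not printed, also held none, although the ratio of *Gli2* fragments between knockdown and control in medium was 17.8. Whether the pattern goes with the response was not tested. The letters of the GLI motif GACCACCCA, or TGGGTGGTC on the other strand, were in none of the 11 windows and in 0.225% of all windows. The shorter ACCACCCA, contained in it and read as TGGGTGGT on the other strand, was likewise in none of the 11 and in 1.28% of all. The palindromic cAMP response element TGACGTCA was in the *Hhip* window and in 1.55% of all windows. A match describes letters in a window and not a folded structure or a bound factor, and the absence of a match says only that these letters are not there.

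Levels were compared as FPKM, that is, per kilobase of gene. 4 members, *Smo*, *Ptch1*, *Gli3* and *Sufu*, were well above the filter of 1 FPKM in at least 3 libraries in all groups. *Pth1r* passed that filter only through the 3 libraries of shRNA-*Ddx5* cells in medium, so its passing already required a difference. *Ihh*, *Hhip*, *Gli1*, *Gli2* and *Pthlh* did not pass and were compared by fragments and an exact permutation test, which with 3 against 3 libraries cannot give a p under 0.1. In shRNA-NC cells in medium, mean FPKM fell in the order *Smo* 66.5, *Ptch1* 36.1, *Gli3* 19.5 and *Sufu* 13.5, with no overlap between neighbours. The next members, *Gli1*, *Pth1r*, *Ihh*, *Pthlh* and *Gli2*, had means from 0.104 down to 0.00786 FPKM and each overlapped with the next. *Gli3* and *Sufu* overlapped in shRNA-*Ddx5* cells in medium and in shRNA-NC cells with cytokines. In the latter group *Ptch1* was below both, and in shRNA-*Ddx5* cells with cytokines the order was *Smo*, *Sufu*, *Ptch1* and *Gli3*, without overlap. The order of the members with the most fragments thus differed between the groups mainly in the place of *Ptch1*.

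**Figure D1:**
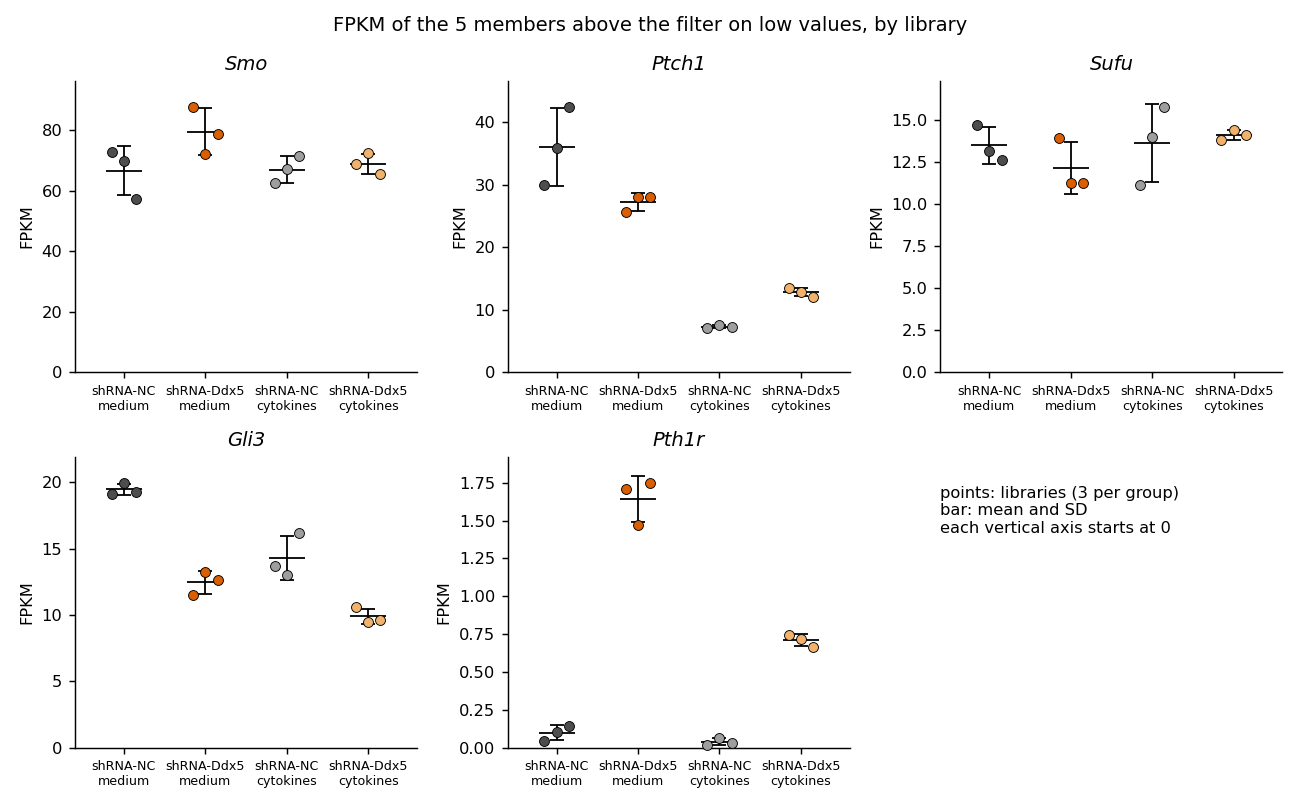
FPKM (vertical axes, each from 0) of *Smo*, *Ptch1*, *Sufu*, *Gli3* and *Pth1r* in each of 12 libraries (points) in 4 groups (horizontal axes), with group means and SD as bars. *Ptch1* lies between 7.07 and 7.47 in shRNA-NC cells with cytokines and between 29.9 and 42.4 in the same cells in medium, *Gli3* is lower in shRNA-*Ddx5* than in shRNA-NC cells in both media, and *Pth1r* exceeds 0.144 only in shRNA-*Ddx5* cells.

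Of the 4 members above the filter in all groups, knockdown of *Ddx5* in medium lowered *Ptch1* and *Gli3*, while *Smo* and *Sufu* did not pass, by limma with Benjamini-Hochberg adjustment over 12368 genes. In the same comparison 47% of all tested genes passed the threshold of 0.05 on the adjusted p, 25.3% as higher and 21.7% as lower in the knockdown. With cytokines present *Ptch1* passed as higher and *Gli3* as lower, where 45.6% of all genes passed, 23.5% as higher and 22.1% as lower. Cytokines lowered *Ptch1* and *Gli3* in shRNA-NC cells, against 33.8% of all genes changed, 18.6% raised and 15.2% lowered. In shRNA-*Ddx5* cells cytokines lowered the same pair, and 27% of all genes changed, 13.5% raised and 13.5% lowered. The difference between the knockdown effects in the presence and absence of cytokines, the interaction, passed for *Ptch1* and for 8.21% of all genes. *Pth1r* is counted with none of these and is described by its fragments. Each group serves in 2 of these comparisons, so they share libraries and are not independent of each other. With this many genes changed in the whole table, the calls do not set the members apart from other genes.

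**Figure D2:**
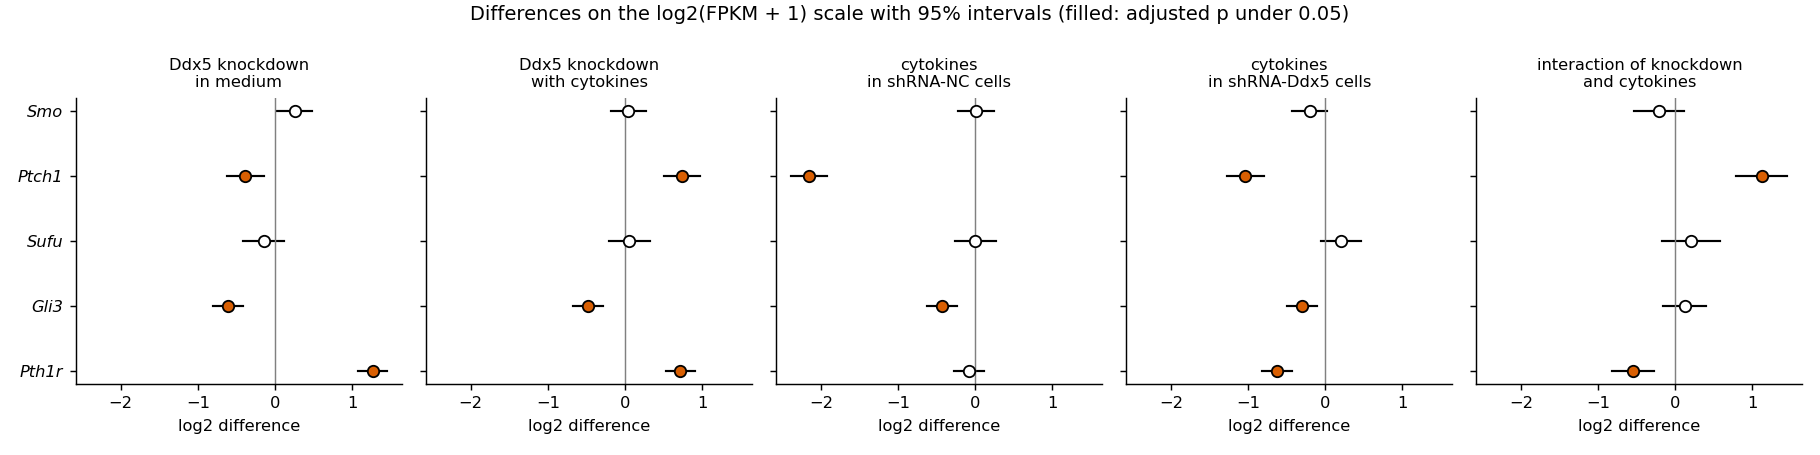
Differences in log2(FPKM + 1) (horizontal axes) of the 5 members that passed the filter (vertical axis), *Pth1r* only through shRNA-*Ddx5* cells in medium, 1 panel per comparison, with 95% intervals as lines and filled points where the adjusted p is under 0.05. *Ptch1* lies at -0.38 for the knockdown in medium and at 0.74 with cytokines, *Gli3* lies below 0 in both, and the intervals of *Sufu* include 0 in every panel.

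Among the Hedgehog ligands, *Ihh* RNA was too scarce to judge. *Ihh* (gene 16147, chr1:74984474-74990831, minus strand) received 19 fragments over the 12 libraries. In medium the 3 libraries held 1, 7 and 0 fragments in shRNA-NC cells and 4, 1 and 0 in shRNA-*Ddx5* cells, and with cytokines 1, 1 and 2 against 2, 0 and 0. The groups overlapped in every comparison, and exact two-sided permutation p-values were 0.9 and 0.6 for the knockdown and 1 and 0.7 for the cytokines. The ratio of knockdown to control in medium was 0.666 with a 95% counting interval of 0.171 to 2.31, so a several-fold difference in either direction would not have been detected. The other ligands were as low, since *Shh* was listed at 0 in every library and group means of *Dhh* were at most 0.0171 FPKM.

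*Hhip*, which encodes a membrane protein that binds and sequesters Hedgehog ligands and is a target of the pathway, had 0 fragments in all 12 libraries. It lies at chr8:80692479-80784691 on the minus strand (gene 15245). A count of 0 allows up to 3 fragments, or at most 0.0219 FPKM in the shallowest library for this gene, and no difference could be judged. Intervals and floors here cover counting error only.

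*Ptch1*, the Hedgehog receptor and a target of the pathway, fell under cytokines in both kinds of cell, and its response to the knockdown differed in sign between the media. It is gene 19206 on the minus strand at chr13:63656142-63721274. In medium its FPKM was 29.9, 35.9 and 42.4 in shRNA-NC cells and 25.5, 28.0 and 28.1 in shRNA-*Ddx5* cells. The groups did not overlap, though the lowest control and the highest knockdown library were close. With cytokines it was 7.07, 7.47 and 7.24 in shRNA-NC cells and 13.4, 12.8 and 12.1 in shRNA-*Ddx5* cells, again without overlap but with the knockdown higher.

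The mean of *Ptch1* in the knockdown was 75.4% of the control in medium, 27.2 ± 1.45 against 36.1 ± 6.21 FPKM (SD, n = 3). On the log2(FPKM + 1) scale it fell by 0.38 (SE 0.11), with an adjusted p of 0.0129 by limma, which became 0.0606 when only the 6 libraries of this comparison were fitted. With cytokines the knockdown mean was 176% of the control, 12.8 ± 0.684 against 7.26 ± 0.200 FPKM (SD, n = 3), a rise of 0.74 (SE 0.11, adjusted p = 0.000237). Cytokines took *Ptch1* to 20.1% of its level in medium in shRNA-NC cells, a log2 difference of -2.15 (SE 0.11, adjusted p = 7.98e-08). In shRNA-*Ddx5* cells they took it to 47.0%, a log2 difference of -1.03 (SE 0.11, adjusted p = 2.56e-05). The difference between the knockdown effects in the 2 media was 1.12 (SE 0.15), with an adjusted p of 0.00123 by limma. This value lay between 1.00 and 1.24 when each library was left out in turn.

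*Smo*, the signal transducer that PTCH1 restrains, was the most abundant member in every group and did not pass the test in any comparison. It is gene 319757 at chr6:29735496-29761365 on the plus strand. In medium its FPKM was 72.6, 69.7 and 57.3 in shRNA-NC cells and 87.5, 72.2 and 78.8 in shRNA-*Ddx5* cells, so that the groups just overlapped. With cytokines it was 62.4, 67.1 and 71.3 against 68.8, 72.3 and 65.6, and the ranges overlapped almost fully. The log2 difference for the knockdown was 0.26 in medium (95% interval 0.03 to 0.48, adjusted p = 0.0641 by limma) and 0.04 with cytokines (95% interval -0.19 to 0.27, adjusted p = 0.772). The first of these passed when shRNA-NC replicate 1 in medium or shRNA-*Ddx5* replicate 2 in medium was left out (adjusted p = 0.0424 and 0.0382 by limma). For the cytokines the differences were 0.01 in shRNA-NC and -0.20 in shRNA-*Ddx5* cells (adjusted p = 0.930 and 0.184 by limma), the latter -0.32 with an adjusted p of 0.0255 after quantile normalization.

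*Sufu*, which encodes the cytoplasmic protein that holds GLI factors back, also passed in no comparison, under any alternative tried. It is gene 24069 at chr19:46385335-46477243 on the plus strand. Its FPKM in medium was 14.7, 13.1 and 12.6 in shRNA-NC and 13.9, 11.2 and 11.2 in shRNA-*Ddx5* cells, and with cytokines 11.1, 13.9 and 15.7 against 13.8, 14.4 and 14.1. All groups compared overlapped, and the 3 control libraries with cytokines were the most spread. The knockdown differences were -0.15 in medium (95% interval -0.41 to 0.12, adjusted p = 0.346 by limma) and 0.06 with cytokines (95% interval -0.21 to 0.32, adjusted p = 0.722). The cytokine differences were 0.00 and 0.21 (adjusted p = 0.993 and 0.238 by limma).

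*Gli3*, the member of the GLI family that acts mainly as a repressor, was lower after the knockdown and lower with cytokines. It is gene 14634 at chr13:15638308-15904611 on the plus strand. In medium its FPKM was 19.2, 19.9 and 19.3 in shRNA-NC cells and 11.5, 13.3 and 12.6 in shRNA-*Ddx5* cells. With cytokines it was 13.7, 13.0 and 16.2 against 10.6, 9.47 and 9.65. None of the compared groups overlapped, and the control in medium held the 3 highest values. The knockdown mean was 64.1% of the control in medium, a fall of 0.61 on the log2 scale (SE 0.09, adjusted p = 0.000241 by limma), and 69.2% with cytokines, a fall of 0.49 (SE 0.09, adjusted p = 0.00103). The difference between these effects was 0.12 (95% interval -0.15 to 0.39, adjusted p = 0.608 by limma). Cytokines lowered *Gli3* by 0.43 in shRNA-NC cells (adjusted p = 0.00359 by limma) and by 0.31 in shRNA-*Ddx5* cells (adjusted p = 0.0246). The last of these did not pass without shRNA-*Ddx5* replicate 2 or 3 in medium, or without shRNA-*Ddx5* replicate 2 or 3 with cytokines, with adjusted p from 0.0802 to 0.0926. A lncRNA on the opposite strand, *Gm6556*, overlaps the *Gli3* row with 17 to 34 fragments per library, against 1283 to 3446 for *Gli3*, and whether the counting used strand is not given in the sources used here.

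*Gli2*, which encodes the main activator at the start of the response, was close to absent except in shRNA-*Ddx5* cells in medium. It is gene 14633 at chr1:118761791-118987578 on the minus strand. The control libraries in medium held 4, 0 and 2 fragments and the knockdown libraries 33, 31 and 36. With cytokines the controls held 1, 2 and 0 and the knockdown libraries 5, 2 and 8. In FPKM these groups did not overlap in either medium, at 0.137 ± 0.0119 against 0.00786 ± 0.00716 in medium (SD, n = 3), with an exact two-sided permutation p of 0.1, the smallest possible. With cytokines the highest control and the lowest knockdown library both held 2 fragments, so only the scaling of FPKM separated them. The ratio of fragments was 17.8 in medium (95% counting interval 7.87 to 49.5) and 5.63 with cytokines (1.59 to 30.3), the latter against 3 fragments in the control libraries together. In shRNA-*Ddx5* cells the level with cytokines was 0.164 of that in medium (95% counting interval 0.0882 to 0.283), also without overlap. A fit with voom weights over the 20009 genes with at least 10 fragments, added after the data were seen, gave adjusted p-values of 0.000153 for the knockdown in medium, 0.0660 for the knockdown with cytokines and 0.0024 for the cytokines in shRNA-*Ddx5* cells. In that fit 35.1%, 33.1% and 19.6% of all genes passed in these comparisons, and 24.2% for the cytokines in shRNA-NC cells. The interaction for *Gli2* did not pass there (adjusted p = 0.316 by limma with voom weights), so that the knockdown effect was not shown to differ between the media. The control libraries alone did not reach 10 fragments, so the entry of *Gli2* into that fit already rested on the knockdown libraries.

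*Gli1*, the activator whose transcription follows Hedgehog input, had 4 to 14 fragments per library and could not be judged for changes below several-fold. It is gene 14632 at chr10:127165751-127177448 on the minus strand. In medium the libraries held 7, 11 and 4 fragments in shRNA-NC cells and 14, 7 and 12 in shRNA-*Ddx5* cells, and with cytokines 10, 11 and 11 against 10, 7 and 7. The knockdown groups overlapped in both media, with ratios of 1.6 (95% counting interval 0.904 to 2.88) and 0.844 (0.476 to 1.48). Exact two-sided permutation p-values for the knockdown were 0.2 and 0.4. In shRNA-NC cells FPKM did not overlap between medium and cytokines, at 0.104 ± 0.0390 and 0.161 ± 0.00201 (SD, n = 3), with the smallest possible exact p of 0.1 and a ratio of 1.5 (95% counting interval 0.845 to 2.71). In fragments these groups did overlap, as a library in medium held 11. *Arhgap9*, which overlaps *Gli1* on the opposite strand, had 0 to 3 fragments per library.

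**Figure D3:**
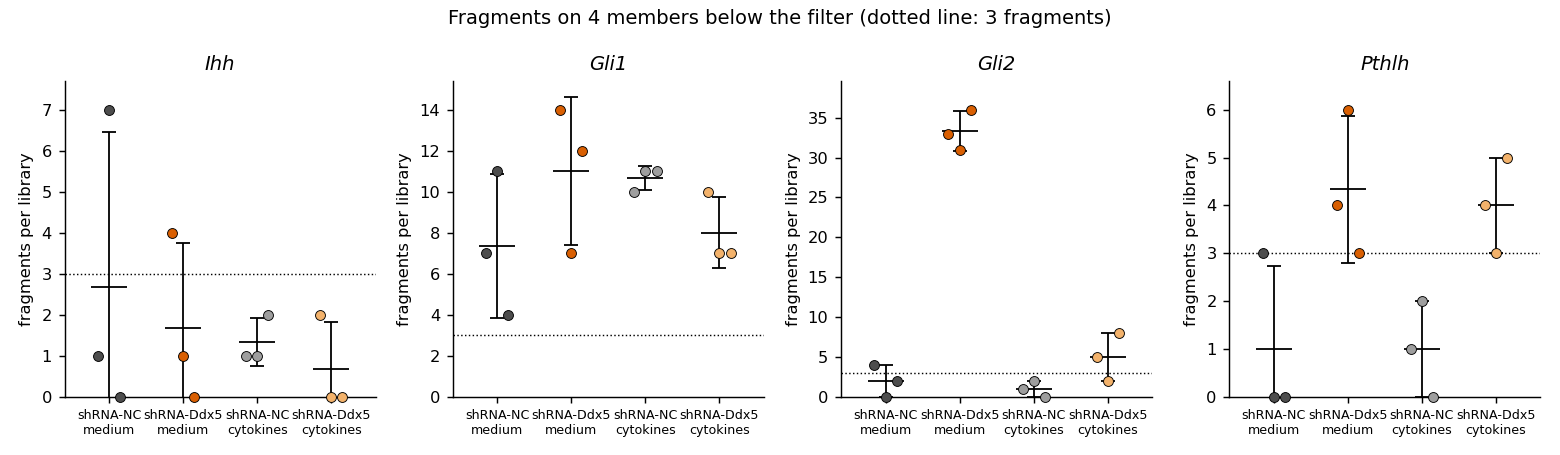
Fragments per library (vertical axes, from 0) on *Ihh*, *Gli1*, *Gli2* and *Pthlh* in 4 groups (horizontal axes), with points for libraries, group means and SD as bars cut at 0, and a dotted line at 3 fragments. *Gli2* has 31 to 36 fragments in shRNA-*Ddx5* cells in medium and at most 8 in any other library, while no library has more than 7 for *Ihh* or 6 for *Pthlh*.

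*Pthlh*, which encodes the PTHrP ligand, was too low for a firm comparison, with 31 fragments in all. It is gene 19227 at chr6:147153607-147165511 on the minus strand. The control libraries held 3, 0 and 0 fragments in medium and 1, 2 and 0 with cytokines, and the knockdown libraries 4, 6 and 3 and then 4, 3 and 5. In FPKM the knockdown libraries lay above the controls in both media, with means of 0.172 ± 0.0576 and 0.173 ± 0.0450 against 0.0337 ± 0.0583 and 0.0385 ± 0.0371 (SD, n = 3). In medium the highest control and the lowest knockdown library both held 3 fragments, so only the scaling of FPKM separated them. The exact two-sided permutation p was 0.1 in each medium, the smallest possible. The ratios were 4.62 (95% counting interval 1.27 to 25.2) and 4.50 (1.21 to 24.9), each against 3 control fragments. The added fit with voom weights gave adjusted p-values of 0.0309 in medium and 0.0534 with cytokines. The control libraries alone did not reach the minimum of that fit, so the entry of *Pthlh* already rested on the knockdown libraries. Cytokines made no visible difference in either kind of cell, with ratios of 1.03 (0.138 to 7.70) and 1.01 (0.420 to 2.39) and exact permutation p-values of 1.

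*Pth1r*, which encodes the receptor for PTHrP, was higher after the knockdown in both media. It is gene 19228 at chr9:110551132-110576213 on the minus strand. In medium its FPKM was 0.0449, 0.106 and 0.144 in shRNA-NC cells, from 3, 7 and 7 fragments, and 1.71, 1.47 and 1.75 in shRNA-*Ddx5* cells, from 91, 86 and 102 fragments. With cytokines it was 0.0185, 0.0659 and 0.0329 in shRNA-NC cells, from 1, 4 and 2 fragments, and 0.747, 0.718 and 0.667 in shRNA-*Ddx5* cells, from 40, 37 and 34 fragments. Knockdown and control did not overlap in either medium, and the controls were near the floor of 3 fragments throughout. *Gm35775*, a lncRNA on the same strand that overlaps the *Pth1r* row, had 0 to 3 fragments per library.

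The ratio of *Pth1r* fragments between knockdown and control was 17.5 in medium (95% counting interval 10.7 to 30.4) and 17.8 with cytokines (8.38 to 45.4). In the added fit with voom weights, for which *Pth1r* had enough fragments over all libraries together, the adjusted p-values were 1.45e-06 in medium and 1.83e-05 with cytokines. Cytokines left 0.434 of the level in medium in shRNA-*Ddx5* cells (95% counting interval 0.345 to 0.542), with an adjusted p of 0.00165 by limma with voom weights. In shRNA-NC cells the ratio was 0.425 (0.149 to 1.08), from 7 fragments against 17, with an adjusted p of 0.206 in the same fit. The interaction in that fit was -0.10 (adjusted p = 0.960 by limma with voom weights). It was -0.55 on the log2(FPKM + 1) scale, which understates changes at low levels, with an adjusted p of 0.0202 by limma among the genes past the filter. On the latter scale it did not pass with a pseudocount of 0.1 (-0.61, adjusted p = 0.441), nor without shRNA-NC replicate 1 or 2 in medium or any of the shRNA-*Ddx5* libraries with cytokines (adjusted p = 0.0506 to 0.0658). As ratios, the knockdown effects in the 2 media each lay within the counting interval of the other.

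Growth-plate markers changed in both directions. Of 27 markers, *Pth1r* among them, 13 were tested, of which 7 rose and 3 fell after the knockdown in medium, and 7 rose and 4 fell with cytokines, where 47% and 45.6% of all genes passed. Some of the tested markers, among them *Pth1r*, *Col11a1* and *Alpl*, reached the filter only with shRNA-*Ddx5* libraries. Their being tested already favoured a rise, so the counts of rises are not independent of the filter. *Sp7*, an osteoblast transcription factor, rose from 2.62 ± 0.41 to 28.3 ± 2.6 FPKM in medium (SD, n = 3), and *Alpl*, the alkaline phosphatase of mineralizing cells, from 0.789 to 15.3. *Runx2*, the factor that drives hypertrophy, rose from 10.6 to 17.0 FPKM in medium (log2 difference 0.63, adjusted p = 0.000414 by limma) and by 0.27 with cytokines (adjusted p = 0.0485, not passed under 12 of the alternatives). *Col2a1*, the collagen of cartilage matrix, fell by 2.80 and 1.98 on the log2 scale. It reached the filter only through shRNA-NC libraries, so its being tested already required a difference. The counts of falls are thus not independent of the filter either. Of the other markers named here, *Col11a1* and *Fgfr3* had higher means in knockdown cells, while *Vegfa* and *Mef2d* fell. The mean of *Col11a1* was 0.897 FPKM in control and 4.78 in knockdown cells in medium, and 0.284 and 3.04 with cytokines. That of *Fgfr3* was 1.67 and 3.51 FPKM in medium. *Vegfa*, the angiogenic factor made by hypertrophic chondrocytes, fell from 17.6 to 8.59 FPKM in medium (log2 difference -0.95, adjusted p = 0.000489 by limma) and by 1.90 on the log2 scale with cytokines (adjusted p = 4.62e-06). *Mef2d*, of the family of transcription factors that includes *Mef2c*, fell by 0.59 in medium (adjusted p = 0.00337 by limma) and by 0.35 with cytokines (adjusted p = 0.0462, not passed under 11 of the alternatives). The summed level of the 27 markers was 92.3 to 111 FPKM in shRNA-NC and 137 to 142 in shRNA-*Ddx5* cells in medium, and 112 to 134 against 107 to 115 with cytokines. *Bglap* and *Dmp1*, which define osteoblasts and osteocytes, had group means of at most 0.235 FPKM. *Col10a1*, *Mef2c* and *Nkx3-2*, of hypertrophic cells or of the response to PTHrP, had group means of at most 0.248, 0.470 and 0.273 FPKM and were not tested. The part of these markers in the *Pth1r* values was not tested.

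The other genes of both pathways were taken from 6 lists, with 78 of 102 genes tested besides the members. After the knockdown 17 were higher and 23 lower in medium, and 13 were higher and 20 lower with cytokines, that is, 51.3% and 42.3% of the 78, beside 47% and 45.6% of all genes. Cytokines raised 6 and lowered 21 in shRNA-NC cells, and raised 6 and lowered 24 in shRNA-*Ddx5* cells, 34.6% and 38.5% of the 78 beside 33.8% and 27% of all genes. The counts of the single lists that follow are read against the same shares of all genes. Unlike the 78, the single lists include the tested members that belong to them. All these counts include genes that passed the filter only through knockdown libraries, such as *Scube3* and *Pde4b*, or only through control libraries, such as *Foxc2*. *Hhat* passed it only through libraries in medium. The median log2 differences were -0.05 and -0.12 for the knockdown and -0.17 and -0.16 for the cytokines, against medians of 0.03, 0.01, 0.02 and 0.00 over all genes.

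For ligand processing and release, 3 of 9 genes were tested. *Scube3*, whose family helps lipid-modified Hedgehog leave the cell, rose by 1.35 in medium (SE 0.11, adjusted p = 4.53e-06 by limma) and by 0.98 with cytokines, from 0.299 to 2.31 FPKM in medium. It passed the filter only through the shRNA-*Ddx5* libraries, so its being tested already required a difference. *Disp1*, the transporter that exports the ligand, rose by 0.24 in medium, a call lost under 6 of the alternatives. *Hhat*, which attaches its palmitate, fell by 0.29 and 0.45 under cytokines in shRNA-NC and shRNA-*Ddx5* cells, the first lost under 7 of the alternatives. It passed the filter only through libraries in medium, so its being tested already favoured a fall under cytokines. The ligands themselves were among the genes too low to test.

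Of 13 receptors, co-receptors and ligand-binding proteins, 9 were tested, with 3 higher and 3 lower after the knockdown in medium and 4 higher and 2 lower with cytokines, 66.7% in each medium. The members *Ptch1* and *Smo* are among the 9, with *Ptch1* counted as lower in medium and as higher with cytokines. The co-receptors *Cdon*, *Boc* and *Gas1* were higher in shRNA-*Ddx5* cells in both media. *Boc* rose by 0.75 in medium and 1.15 with cytokines (SE 0.12, adjusted p = 0.0004 and 2.09e-05 by limma), *Cdon* by 1.04 and 0.58, and *Gas1* by 0.51, lost under 7 of the alternatives, and 0.80. *Gas1* was the most abundant, at 468 ± 27.6 FPKM in the control in medium (SD, n = 3). Cytokines lowered *Boc* by 1.32 in shRNA-NC and 0.92 in shRNA-*Ddx5* cells, along with *Cdon* and *Gas1*. *Evc* and *Evc2*, which work with SMO at the base of the cilium, fell after the knockdown in both media, by 0.46 and 0.33 and by 0.92 and 0.39.

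Of 19 GLI factors and their cytoplasmic regulators, 17 were tested, with 1 higher and 4 lower after the knockdown in medium and 3 higher and 5 lower with cytokines, or 29.4% and 47.1%. The members *Gli3* and *Sufu* are among the 17, with *Gli3* counted as lower in both media. *Mgrn1*, a ubiquitin ligase that limits SMO, fell by 1.12 and 0.80, from 13.2 to 5.56 FPKM in medium. *Stk36*, the homologue of the fly kinase Fused, fell by 0.35 and 0.47. *Prkar1a* and *Prkaca*, subunits of the kinase that marks GLI proteins for processing, rose by 0.31 in medium and by 0.66 with cytokines, respectively, but the first was 0.04 after quantile normalization (adjusted p = 0.737 by limma). *Grk2*, a kinase of SMO, was raised by cytokines by 0.31 in shRNA-NC and 0.51 in shRNA-*Ddx5* cells, and *Gsk3b* was lowered by 0.44 in the latter.

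Of 24 ciliary transport genes, on which SMO and GLI movement depends, 23 were tested, of which 4 were higher and 10 lower after the knockdown in medium, and 2 were higher and 5 lower with cytokines, or 60.9% and 30.4% beside 47% and 45.6% of all genes. Their median log2 difference was -0.23 and -0.18, against 0.03 and 0.01 over all genes. *Dync2h1*, the motor of retrograde transport, fell by 0.99 and 0.57 (SE 0.18), *Ift140* of complex A by 0.67 and 0.52, and *Ift88* of complex B by 0.53 and 0.59. *Ift52* rose by 0.41 in medium, and *Ift20* rose by 0.55 with cytokines. *Arl3* had a difference of 0.54 in medium that did not pass under 8 of the alternatives, a replicate block among them (adjusted p = 0.0548 by limma), and was 0.33 without shRNA-*Ddx5* replicate 1. *Ift57* rose by 0.23 in medium and 0.24 with cytokines, calls lost under 10 and 9 of the alternatives. Cytokines raised none and lowered 9 in shRNA-NC cells, among them *Ift80* by 0.74, and raised 2 and lowered 8 in shRNA-*Ddx5* cells, among them *Rpgrip1l* of the transition zone by 0.95.

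Genes often used as Hedgehog targets did not share a direction. Of 16 genes, 6 were tested, with 2 higher and 3 lower after the knockdown in each medium, or 83.3% of these 6. The member *Ptch1* is among the 6, counted as lower in medium and as higher with cytokines. *Foxf1*, a mesenchymal transcription factor, rose by 1.66 in medium and 1.6 with cytokines (SE 0.17, adjusted p = 2.08e-05 and 2.47e-05 by limma), from 3.39 to 12.7 FPKM in medium. *Foxf2* fell by 0.46 with cytokines and had a difference of 0.00 in medium, but its interaction did not pass (adjusted p = 0.0829 by limma), and *Foxc2* fell by 0.52 and 0.90. *Ccnd1*, the cyclin of the G1 phase, rose by 0.68 in medium and fell by 0.99 with cytokines. In medium its FPKM was 13.5 ± 3.3 in control and 22.0 ± 1.1 in knockdown cells, and with cytokines 33.9 ± 3.5 and 16.5 ± 0.56 (SD, n = 3). Its interaction was -1.67 (SE 0.20, adjusted p = 0.000568 by limma). *Ccnd2* fell by 0.35 in medium. *Mycn* and *Bcl2* were below the filter, with group means of at most 0.0156 and 0.502 FPKM.

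**Figure D4:**
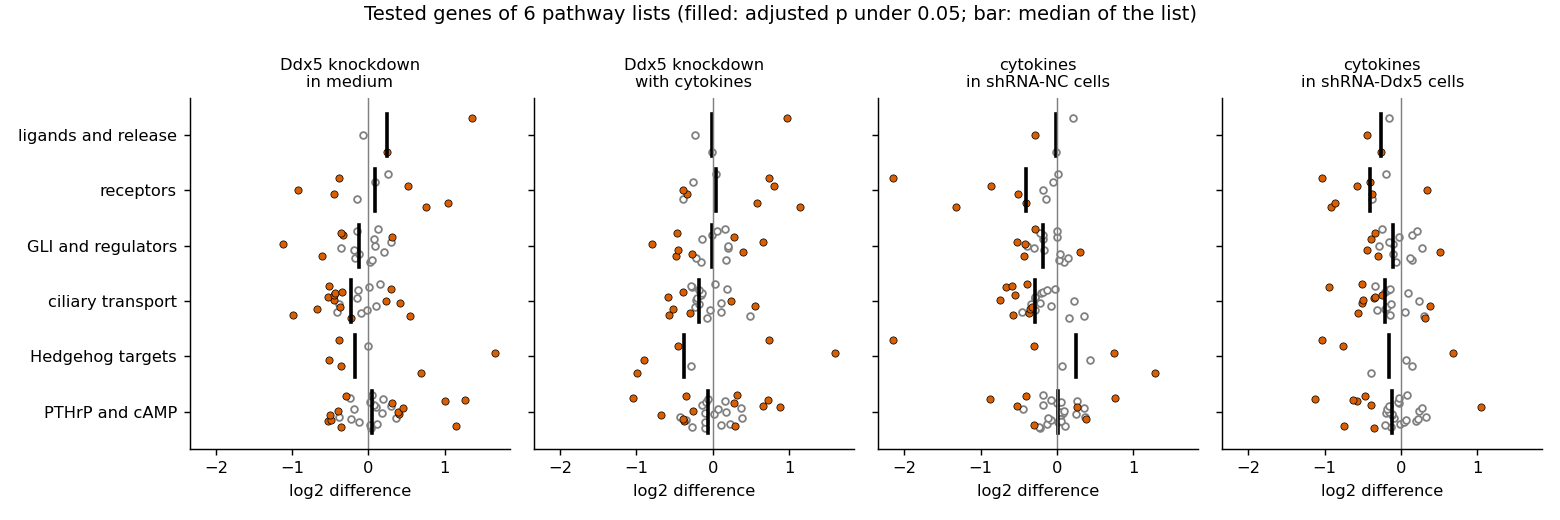
Differences in log2(FPKM + 1) (horizontal axes) of the tested genes of 6 pathway lists, members included (vertical axis), in 4 comparisons, with filled points where the adjusted p is under 0.05 and black bars at the median of each list. The ciliary transport genes have medians of -0.23 and -0.18 for the knockdown, while filled points of the receptor and target lists lie on both sides of 0.

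Downstream of the PTHrP receptor, 29 of 40 genes were tested, with 7 higher and 6 lower after the knockdown in medium and 6 higher and 6 lower with cytokines, or 44.8% and 41.4%. The counts include *Pth1r* itself. *Gnas*, which encodes Gαs, rose from 93.2 ± 3.3 to 122 ± 3.8 FPKM in medium (SD, n = 3; log2 difference 0.38, adjusted p = 0.000956 by limma), a difference that was 0.11 after quantile normalization (adjusted p = 0.234). The adenylate cyclase *Adcy7* rose by 1.15 in medium and 0.29 with cytokines, and the kinase subunit *Prkar2b* by 1.00 in medium. *Atf1* and the CREB coactivator *Crtc3* fell in both media, by 0.52 and 0.38 and by 0.51 and 0.68. With cytokines the phosphodiesterase *Pde4b* rose by 0.88 and the cAMP-induced kinase *Sik1* fell by 1.04. *Pde4b* passed the filter only through the shRNA-*Ddx5* libraries with cytokines, so its passing already required a difference. *Rgs2*, a brake on G protein signalling, was lowered by cytokines by 0.87 in shRNA-NC and 1.12 in shRNA-*Ddx5* cells.

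The genes with the most similar profile were sought for members with a difference of at least 0.5 past the threshold, by the root mean square difference of centred log2(FPKM + 1) over 12 libraries. For *Ptch1*, whose own root mean square deviation was 0.856, they were *Id4* (0.235) and *C1qtnf1* (0.241). *C1qtnf1* had mean FPKM of 7.31 and 6.79 in medium and 1.63 and 3.40 with cytokines, in shRNA-NC and shRNA-*Ddx5* cells. For *Gli3*, with a deviation of 0.339, they were *Chd8* (0.0700) and *Igf1r* (0.0774). For *Pth1r*, with 0.546, they were *Tmie* (0.108) and *Adgrf4* (0.109), and *Tmie* had mean FPKM of 0.134 and 1.67 in medium and 0.0489 and 0.847 with cytokines. Since all genes were measured in the same libraries and nearest profiles were picked from 12368 genes, these are descriptions.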

How the data were processed

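RNA-seq of 12 ATDC5 libraries in 4 groups of 3 was analysed, each library being placed in its group by its label. The authors deposited FPKM for 46731 genes, 400 of them unnamed loci, with NCBI gene numbers, lengths and coordinates. The submitters' processing notes name HISAT2 2.0.5, featureCounts 1.5.0-p3 and DESeq2 1.20.0, and mm10 as a build, but the chromosome accessions and gene spans in the table are those of GRCm39, and GRCm39 coordinates are given. Strandedness is not given in the sources used here. Multiplied by gene length, the deposited FPKM of a library were whole multiples of its smallest step (100% of values within 0.01). The multiples are the fragments, 14119199 to 19276520 per library, and the steps give denominators of 0.957 to 1.08 times their sum. FPKM thus already carried a scaling between libraries.

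log2(FPKM + 1) was compared with limma 3.58.1 in R 4.3.3 (lmFit, contrasts.fit, eBayes with trend, two-sided) for the 12368 genes with at least 1 FPKM in at least 3 libraries, with 4 group means and no covariate, Benjamini-Hochberg adjustment over all of them and a threshold of 0.05. Members below the filter were compared by exact permutation and by fragments with 95% exact binomial intervals of the ratio. The limma fit was tested on simulated data. Alternatives tried were no filter, a pseudocount of 0.1, a replicate block, quantile normalization, scaling to the sum of fragments, voom weights, only the 6 libraries compared and each library left out in turn. A voom fit of the 20009 genes with at least 10 fragments was added after the data were seen.

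The members and the gene lists were chosen with earlier results of these data known. Of each pathway list, the genes named were those past the threshold with the 2 largest rises and 2 largest falls in each knockdown comparison and the largest rise and fall in each cytokine comparison, besides 12 genes named whatever their values, of which 1 is not reported here. Other values of *Cdon*, *Gas1*, *Evc*, *Sox9*, *Col2a1*, *Col11a1*, *Fgfr3*, *Acan*, *Cnmd*, *Sp7*, *Alpl*, *Vegfa*, *Mef2d*, *Bglap*, *Dmp1*, *Shh* and *Dhh* were added after their values were seen. Promoter windows came from RefSeq and were placed on GRCm39 by exact match. Scripts used Python 3.11.15, numpy 2.4.6, pandas 2.3.3 and matplotlib 3.10.9.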

Additional observations from a re-analysis of the deposited data

Results flagged for a closer look

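The interaction of knockdown and cytokines passed the threshold for 10 genes named here, by limma on log2(FPKM + 1) with Benjamini-Hochberg adjustment over 12368 genes. It passed for 8.21% of all genes, and for 6 of the 78 tested pathway genes other than members, or 7.69%. Many of the named genes were chosen by a large difference in a single medium or added after their values were seen, so the 10 depend on that choice. For 5 of the 10, *Pth1r*, *Cdon*, *Sp7*, *Vegfa* and *Prkar2b*, the interaction did not pass under every alternative tried. For *Ptch1* the knockdown effect with cytokines minus that in medium was 1.119 on the log2(FPKM + 1) scale (adjusted p = 0.00123), as its mean was 75.4% of the control in medium and 176% with cytokines. For *Pth1r* the same difference was -0.5465 (adjusted p = 0.0202), while the ratios of fragments were 17.5 and 17.8, and the difference did not pass with voom weights (-0.10, adjusted p = 0.95). For *Ccnd1*, one of the genes named whatever its values, it was -1.673 (adjusted p = 0.000568), with a rise in medium and a fall with cytokines. For *Cdon* it was -0.4658 (adjusted p = 0.0382), for *Adcy7* -0.8527 (adjusted p = 0.00102), for *Prkar2b* -0.8381 (adjusted p = 0.0172) and for *Sp7* -1.194 (adjusted p = 0.00366), with a rise of each in medium. That of *Sp7* was -0.57 (adjusted p = 0.378) with a pseudocount of 0.1 and -0.40 (adjusted p = 0.518) with voom weights. For *Vegfa* it was -0.9454 (adjusted p = 0.0231), with a fall in both media, and it was lost under 5 of the alternatives. For *Pde4b* it was 0.7826 (adjusted p = 0.00213) and for *Sik1* -0.7964 (adjusted p = 0.0159), both past the threshold for the knockdown with cytokines. *Pde4b* passed the filter only through the shRNA-*Ddx5* libraries with cytokines, so its being tested already required a difference. The interaction of *Cdon* did not pass under 16 of the alternatives and that of *Prkar2b* under 2.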

How the results depend on the processing

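Of the member values under the alternatives, 601 kept their side of the threshold or moved by less than the spread between replicates, 13 were no longer past it, 10 newly passed it, 16 values without a test moved further, and none that passed changed sign. Leaving out each library in turn gave 2219 to 3826 genes past the threshold for cytokines in shRNA-*Ddx5* cells, with the lowest value without shRNA-*Ddx5* replicate 3 in medium, and 493 to 1109 for the interaction, lowest without shRNA-*Ddx5* replicate 3 with cytokines and moved by over 1.5 times also without shRNA-NC replicate 2 in medium, shRNA-*Ddx5* replicate 3 in medium or either other shRNA-*Ddx5* library with cytokines. The members past the threshold then numbered 1 to 3 and 1 to 2. For the interaction only 1 member, *Ptch1*, passed with a pseudocount of 0.1, with voom weights and with voom weights over genes with at least 10 fragments. *Pth1r* did not pass the filter when a library of shRNA-*Ddx5* cells in medium was left out, so these fits gave it no value. Of the values of 43 other named genes, 3975 kept their side of the threshold, 214 no longer passed, 52 newly passed and 1 changed sign (*Gnas* under cytokines in shRNA-NC cells, -0.22 after quantile normalization). Calls lost under more than 5 alternatives were those of *Cdon* for the interaction, *Foxf2*, *Hhat*, *Pde4b*, *Grk2* and *Dync2h1* for cytokines in shRNA-NC cells, *Evc2*, *Ift88*, *Ift20*, *Disp1* and *Gas1* for cytokines in shRNA-*Ddx5* cells, *Runx2* and *Mef2d* for the knockdown with cytokines, *Ift57* for the knockdown in both media and *Foxc2*, *Arl3*, *Gas1* and *Disp1* for the knockdown in medium. The replicate numbers were not shown to pair the libraries, as the correlation of deviations was 0.448, 0.0425 and 0.313 for the 3 pairs in medium and -0.0201, 0.121 and -0.0855 with cytokines, and in no comparison did every library correlate best with its own number. A replicate block gave 5452 genes in medium, 5232 with cytokines and 687 for the interaction, and changed no call of a tested member. At 0 to 14 fragments per library, *Ihh*, *Hhip*, *Gli1* and *Pthlh* could not be compared beyond several-fold differences.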
